A study of Mus musculus with 12 samples.

Results

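Cytosolic ribosomal protein genes were examined in the cerebellum of 12 mice, sequenced as 1 bulk RNA library per mouse. The set holds 82 of the 55401 gene rows counted. A row was a member if its Ensembl identifier maps to a protein-coding mouse gene named Rpl or Rps followed by a number, Rplp0, Rplp1, Rplp2 or Rpsa, without the S6 kinases, and if it had at least 10 reads in at least 4 libraries. Of 92 rows with such names, 10 were below that minimum. The members comprise 46 genes of the large (60S) subunit, 31 of the small (40S) subunit and 5 genes outside the core ribosome, namely Rpl7l1, Rpl22l1, Rpl36al, Rps27l and Rps19bp1. The mutant mice model SCA1 (spinocerebellar ataxia type 1): they are heterozygous knock-ins, written Atxn1154Q/2Q in the labels, with an expanded glutamine tract coded by a single Atxn1 allele. These mice received Hit 2 at 25 mg/ml in DMSO (Het Hit 2) or DMSO alone (Het DMSO), and wild-type mice received DMSO alone (WT DMSO), with 4 mice in each group. All 3 groups were injected intraperitoneally each day for 5 days, rested for 2 days and were injected for another 5 days, from 18 to 20 weeks of age, with DMSO kept below 4 ml/kg. Libraries are named by animal number.

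Cytosolic ribosomes join a small subunit, which reads the mRNA, to a large subunit, which forms the peptide bond. The proteins of both subunits are needed in equal amounts, and their mRNAs begin with a run of pyrimidines, the 5′ terminal oligopyrimidine (TOP) motif, through which mTOR and LARP1 adjust their translation. In the cerebellum every cell makes ribosomes, from the many small granule neurons to the few large Purkinje cells and the glia.

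Reads on genes numbered 15855751 to 45265719 per library. Het DMSO libraries 409 and 411 stood apart from the other 10. Library 409 had 0.0795% of its gene reads on mitochondrial transcripts, where the other 11 had 1.85% to 2.81%. Unassigned reads were fewer in both, at 45.4% and 44.7% compared with 51.0% to 54.6% elsewhere, and so was Malat1, at 0.661% and 1.03% of gene reads compared with 1.58% to 2.27%. In library 411 the summed level of 10 Purkinje cell markers was 836.8 CPM (counts scaled to a common library size after TMM scaling), against 8175 to 8514 CPM in the WT DMSO libraries and 3615 to 7016 CPM in the Het Hit 2 libraries. Its 10 granule cell markers summed to 129.8 CPM, against 4113 to 4702 CPM in WT DMSO and 2676 to 4445 CPM in Het Hit 2, and its 8 oligodendrocyte markers summed to 6734 CPM, against 1839 to 3448 CPM in WT DMSO and 1326 to 5597 CPM in Het Hit 2. None of these 28 markers was at 0 in any library. In bulk tissue, fewer cells of a type and less RNA per cell cannot be told apart. WT DMSO libraries 425 and 426 had 1393 and 1437 CPM of Xist and the other 10 libraries at most 0.295 CPM, so females occurred in the WT DMSO group only. The labels name no sequencing runs. Counts and medians over the members, and the fold changes of most genes named, are given with and without libraries 409 and 411.

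A promoter was given for 62 of the 82 members among 11245 genes in a RefSeq table of GRCm38.p6, with 250 bases before to 50 bases after the transcription start. The TOP motif can be read from the start base onward, and the windows below show it for 5 members and its absence in Rpl26. Each window holds 40 bases before and 20 bases from the start base, and capitals mark a run of 5 or more C or T letters across the start base and, where present, the letters CCGGAAG, the core bound by ETS factors such as GABPA.
Rps6, chr4:86857348-86857407, minus strand: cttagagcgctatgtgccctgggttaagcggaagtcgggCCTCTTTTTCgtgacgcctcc
Rps27, chr3:90213629-90213688, minus strand: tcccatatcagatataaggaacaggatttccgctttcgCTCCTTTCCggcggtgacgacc
Rplp2, chr7:141447611-141447670, plus strand: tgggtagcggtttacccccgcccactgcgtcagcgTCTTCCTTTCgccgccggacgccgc
Rps18, chr17:33955646-33955705, minus strand: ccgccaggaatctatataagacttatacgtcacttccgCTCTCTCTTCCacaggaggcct
Rpl38, chr11:114668540-114668599, plus strand: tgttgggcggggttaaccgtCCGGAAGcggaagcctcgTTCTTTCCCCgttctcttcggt
Rpl26, chr11:68901526-68901585, plus strand: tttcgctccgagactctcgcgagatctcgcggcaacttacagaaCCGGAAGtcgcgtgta
Such a run across the start base was present in 20 of the 62 members (32.3%) and in 11.5% of all 11245 promoters. CCGGAAG on either strand was present in 25 members (40.3%) and 18.2% of all promoters, and CTTTCC on the gene strand in 25 members (40.3%) and 17.1%. The Sp1 core GGGCGG on either strand was present in 64.5% of the members and 67.6% of all promoters, and the YY1 core AAGATGGC on either strand in 9.68% and 4.79%. TATAAA on the gene strand was present in 9.68% of the members and 5.37% of all promoters. These are matches of letters in 1 listed start per promoter and not measured binding sites.

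The members differed widely in level. Levels between genes were compared as CPM per kilobase of the principal coding transcript in the GENCODE M21 annotation. The highest medians over the 12 libraries were 202 CPM per kilobase for Rps29 of the small subunit, 201 for Rplp1 of the acidic stalk of the large subunit and 177 for Rpl26, a large subunit protein near the exit of the peptide tunnel. The ranges over libraries of these 3 genes overlapped. The lowest medians were 0.946 CPM per kilobase for Rpl36al, the autosomal copy of Rpl36a, 1.36 for Rpl24, a protein of the bridge between the subunits, and 7.66 for Rpl13a. In GENCODE M21, Rpl24 shares 47.0% of its exonic bases on the same strand with another gene (Gm28037), Rpl13a shares 35.4%, Rpl36al 24.5% and Rps10 20.6%. A read that falls in 2 genes is counted as ambiguous by the counting used, so these 4 levels are uncertain. Some principal transcripts are long, such as the 3706 bases of Rps20 and the 2989 bases of Rpl18, and the per-kilobase levels of these genes depend on that choice. Rpl36al and Rpl24 also lay nearest the inclusion minimum, with at least 10 reads in 8 and 11 libraries. Just outside it were Rpl9-ps6 with 3 such libraries and Rps27rt with 1.

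**Figure D1:**
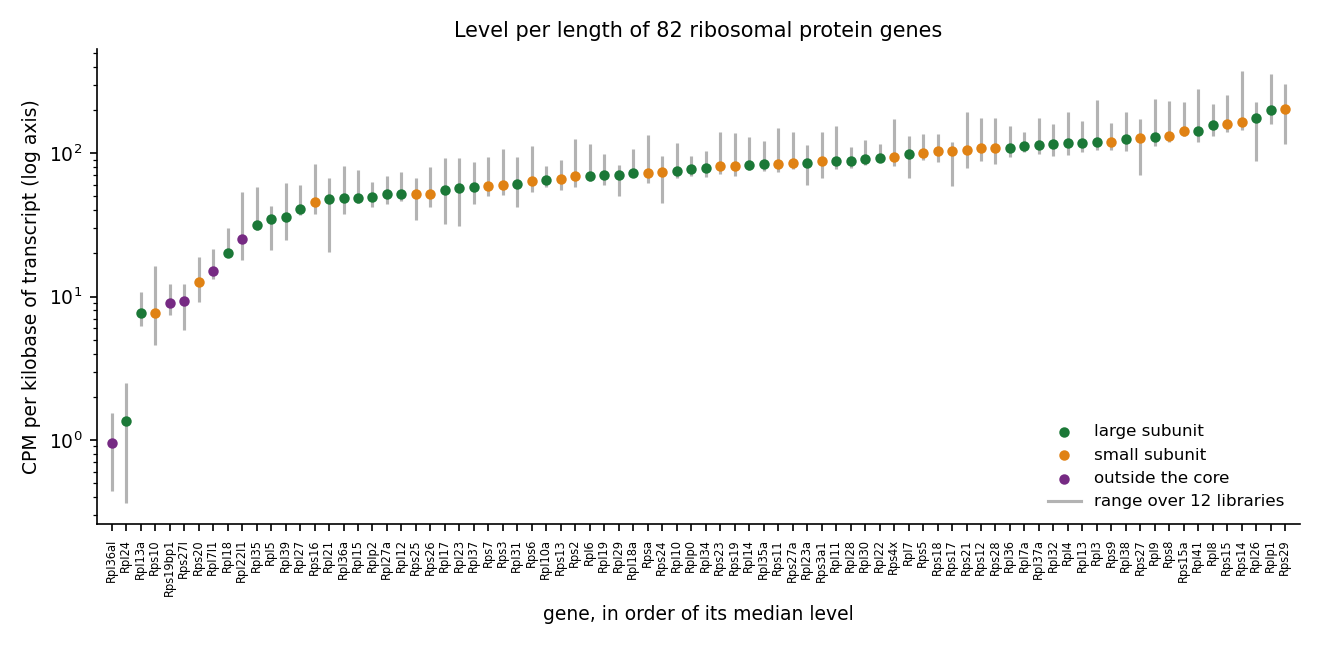
Median level of each of the 82 genes over 12 libraries in CPM per kilobase of its principal transcript (log axis), in rising order, with grey bars for the range over libraries and colours for the subunit. Most core genes lie within 1 order of magnitude, while Rpl36al (0.946) and Rpl24 (1.36) lie lowest and Rplp1 (201) and Rps29 (202) highest.

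Members with near-identical copies are measured with less certainty, because only uniquely mapped reads were counted. Processed pseudogenes of 60 members had rows of their own, up to 24 rows for 1 member (Rpl31 and Rps12). Of 300 such pseudogene rows, 109 had no read, and together they took 0.00165% (library 409) to 0.00417% (library 430) of gene reads. Of the members outside the core, Rps27l, Rpl22l1 and Rpl36al were compared with their partners by coding sequence. The coding sequences of Rps27 and its paralog Rps27l, a p53-induced copy, are shown from GENCODE M21 transcripts, with capitals at the 61 positions where the pair differs.
Rps27: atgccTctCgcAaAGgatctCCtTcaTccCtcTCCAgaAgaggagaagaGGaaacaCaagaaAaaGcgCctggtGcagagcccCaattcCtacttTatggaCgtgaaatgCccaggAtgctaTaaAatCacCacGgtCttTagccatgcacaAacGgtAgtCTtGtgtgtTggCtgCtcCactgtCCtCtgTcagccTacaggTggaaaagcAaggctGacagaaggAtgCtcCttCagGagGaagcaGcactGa
Rps27l: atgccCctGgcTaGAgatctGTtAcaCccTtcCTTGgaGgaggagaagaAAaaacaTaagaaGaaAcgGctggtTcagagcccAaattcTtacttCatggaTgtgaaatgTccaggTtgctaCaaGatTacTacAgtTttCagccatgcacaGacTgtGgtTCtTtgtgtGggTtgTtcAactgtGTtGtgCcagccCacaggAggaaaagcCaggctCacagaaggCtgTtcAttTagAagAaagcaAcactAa
Both are 255 bases long, 76.1% of aligned bases are identical and the longest identical stretch is 11 bases, against reads of 100 bases. The identity of the coding sequences was 87.9% for Rpl36a and Rpl36al, with a longest identical stretch of 24 bases, and 72.7% for Rpl22 and Rpl22l1, with one of 26 bases. Rpl3l, Rpl10l and Rpl39l, tissue-restricted copies of Rpl3, Rpl10 and Rpl39, were below the inclusion minimum in this tissue.

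Together the 82 members took 0.486% to 0.621% of gene reads in 11 libraries and more in library 411. Their share of gene reads was 0.531%, 0.540%, 0.523% and 0.486% in WT DMSO libraries 413, 425, 426 and 431. It was 0.508%, 0.838%, 0.544% and 0.536% in Het DMSO libraries 409, 411, 420 and 429, and 0.621%, 0.524%, 0.517% and 0.595% in Het Hit 2 libraries 410, 421, 422 and 430. The groups overlapped, with means of 0.520% ± 0.0235 (SD, n = 4) in WT DMSO, 0.607% ± 0.155 (SD, n = 4) in Het DMSO and 0.564% ± 0.0517 (SD, n = 4) in Het Hit 2. The Wilson 95% interval of the share was 0.834% to 0.842% in library 411 and 0.483% to 0.489% in library 431, the highest and the lowest. Without library 411 the Het DMSO mean was 0.529%.

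Gene by gene, each member was set against its own median over the 12 libraries on the log2 CPM scale. The median deviation of the 82 members was -0.01, 0.00, -0.00 and -0.17 in the WT DMSO libraries, in the order above. It was -0.03, 0.57, -0.00 and -0.00 in Het DMSO and 0.16, -0.07, -0.03 and 0.09 in Het Hit 2. The median over all genes tested lay between -0.03 and 0.01 in each library. In library 411, 77 of 82 members were above their own median and the median was 1.49-fold of it. The small subunit deviated more there than the large, with medians of 0.69 and 0.50. Members above their own median numbered 71 in Het Hit 2 library 410 and 76 in library 430, and only 5 in WT DMSO library 431, where the median was lowest. Without libraries 409 and 411 the members varied little between libraries. The SD of each gene was here computed over all remaining libraries, regardless of group. Its median over members was 0.12 on the log2 scale, against 0.20 over all genes tested. This SD was below 0.2 for 77 of the 82 members.

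**Figure D2:**
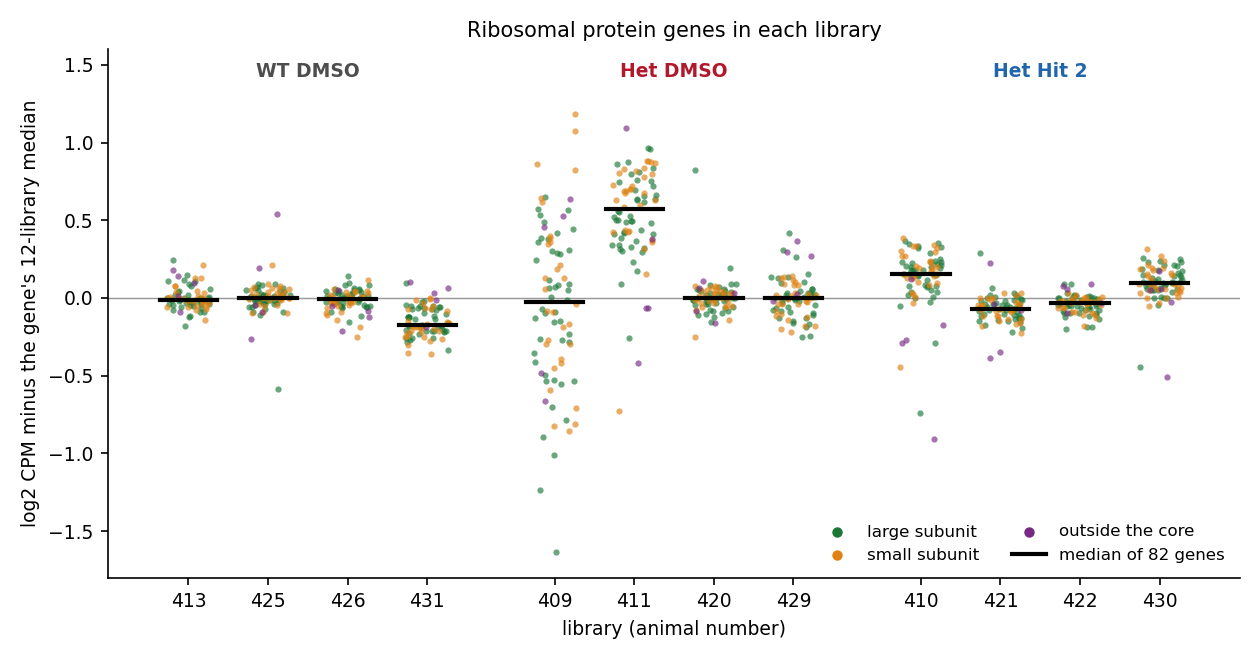
Deviation of each of the 82 genes from its own 12-library median (log2 CPM, y axis) in each library (x axis, by group), with colours for the subunit and a black bar for the median. Library 411 sits high as a whole (median 0.57), library 409 is spread in both directions around -0.03, and library 431 sits lowest (-0.17).

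Cell type markers also differed between libraries, in part alongside these values. The median deviation of the 10 granule cell markers was -5.09 in library 411, -0.60 in 410 and -0.35 in 430, the 3 libraries with the highest ribosomal protein medians, and was between -0.03 and 0.33 in the other 9. Purkinje cell markers deviated by -2.17, -0.84 and -0.15 there, and oligodendrocyte markers by 1.63, 1.29 and -0.11. Microglia markers deviated by 1.18, 0.77 and 0.02. In the same order Bergmann glia and astrocyte markers deviated by -0.45, -0.04 and -0.05, endothelium markers by 0.38, 0.41 and -0.27, choroid plexus markers by 1.79, 3.74 and -0.41 and blood markers by -1.47, 2.31 and 0.39. In library 431, the lowest, Purkinje cell markers deviated by 0.37, granule cell markers by -0.00, oligodendrocyte markers by -0.42, Bergmann glia and astrocyte markers by -0.07, microglia markers by -0.33, endothelium markers by -0.08, choroid plexus markers by -0.63 and blood markers by 1.92. Other libraries differed in markers while their ribosomal protein medians were near 0: oligodendrocyte markers deviated by 0.52 in library 413, -0.77 in 420 and 0.64 in 429, and choroid plexus markers by 4.78 in 429. The part of cell type makeup in the ribosomal protein levels was not tested.

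Libraries 409 and 411 differed from the rest in different ways. Every one of the 82 members had its highest or its lowest level in at least 1 of these 2 libraries. Library 411 was the highest library for 67 members, and library 409 was the highest for 13 and the lowest for 31. No such counts are given for all genes tested, so these are not read as particular to the members. Members were scattered with an SD of 0.53 in library 409 and 0.31 in 411, and of 0.06 to 0.21 elsewhere. All genes tested were scattered more widely, with an SD of 1.021 in 409, 1.161 in 411 and 0.30 to 0.62 elsewhere. In library 411 the members furthest above their medians were the paralog Rpl22l1 (1.09), Rpl3 (0.97), which reaches the peptidyl transferase centre, and Rpl41 (0.96), the smallest ribosomal protein. The lowest was Rps10 (-0.73), a protein of the small subunit head. In library 409 Rps14 (1.18), Rps10 (1.07) and Rps2 (0.86) were the highest and Rpl24 (-1.64), Rpl21 (-1.23) and Rpl26 (-1.01) the lowest. Across the 82 members Pearson's r between the deviations in libraries 411 and 410 was 0.79. Between 411 and 409 it was -0.0003. All deviations share 1 set of medians, and genes are not independent replicates. The r of the deviations with the GC percentage of the transcript over the 82 members was 0.38 in library 409, -0.48 in library 429 and between -0.18 and 0.22 in the other 10, with -0.11 in library 411. Over 14446 genes it was 0.68 in library 409 and between -0.18 and 0.09 in the other 11. Divided at the members' median GC content, the median deviations of the members of higher and lower GC content were 0.12 and -0.27 in library 409 and -0.02 and 0.03 in library 429. Rps10 and Rpl21 were picked after their values were seen.

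**Figure D3:**
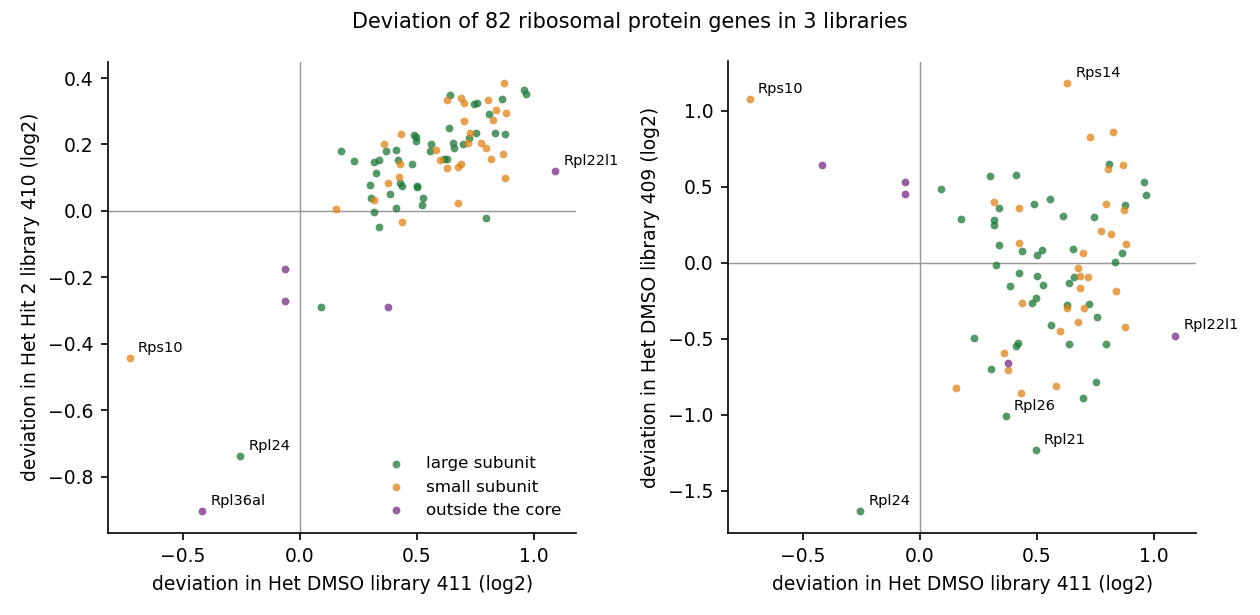
Deviation of each of the 82 genes from its 12-library median (log2) in Het DMSO library 411 (x axis) against Het Hit 2 library 410 (left) and Het DMSO library 409 (right), with 1 point per gene, coloured by subunit. Points follow a rising band on the left (r 0.79) and none on the right (r -0.0003), where they range from -1.64 (Rpl24) to 1.18 (Rps14).

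The knock-in comparison sets Het DMSO against WT DMSO. Ribosomal protein genes were mostly at slightly higher levels in Het DMSO, but none passed the test, and the median difference was 0.02 without libraries 409 and 411. With edgeR's quasi-likelihood test 0 of 82 members had an adjusted p under 0.05, against 0.00516% of all 19378 genes tested (1 gene). DESeq2 and limma with a quality weight per library also gave 0 members, and 43 and 98 of all genes. At an unadjusted p under 0.05 edgeR gave 14 members (17.1%), against 7.11% of all genes tested. All 14 were higher in Het DMSO and none lower, against 4.77% of all genes higher and 2.34% lower at that p. DESeq2 gave 15 members, against 9.27% of all genes, and limma 5 (6.10%), against 9.402%. With sex as a covariate edgeR gave 7 (2.93% of all genes), and in a fit of the compared groups alone 5 (3.75%). Among the members 74 of 82 had a log2 fold change above 0, against 55.8% of all genes, and its median was 0.19, against 0.05 over all genes. Without both libraries the median was 0.02, 52 members were above 0 (48.6% of all genes), and only Rpl22l1 had an unadjusted p under 0.05 (5.83% of all genes). None had an adjusted p under 0.05, against 0.0895% of the 20105 genes then tested. The median was 0.06 without library 411 alone and 0.04 with library weights. Without library 409 alone it was 0.24, with 78 members above 0. The count at an unadjusted p under 0.05 was 2 without library 431 (3.05% of all genes), 4 without 411 (7.33%) and 6 without 413 (5.35%). It was 9 without 425 (4.50%) or 422 (5.84%), 18 without 409 (9.24%), and 22 without 420 (14.4%) or 429 (14.05%).

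The 5 members with the smallest p in this comparison were Rps14, Rps2, Rps23, Rps3 and Rpl37a. Rps14 stood at 96.3, 98.4, 96.5 and 87.2 CPM in the WT DMSO libraries (libraries 413, 425, 426 and 431), at 225, 153, 104 and 106 CPM in the Het DMSO libraries (libraries 409, 411, 420 and 429) and at 108, 93.9, 98.8 and 99.0 CPM in the Het Hit 2 libraries (libraries 410, 421, 422 and 430). Libraries 409 and 411 were the highest of all 12, and the Het DMSO and WT DMSO libraries did not overlap. The log2 fold change of Rps14, a protein of the small subunit platform, was 0.63 (SE 0.21, edgeR unadjusted p 0.0110, adjusted p 0.616). The exact two-sided permutation p over the 70 assignments of 4 against 4 libraries was 0.0286, the smallest this design allows. Without both libraries the fold change was 0.14 (edgeR unadjusted p 0.0824).

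Rps2 stood at 76.0, 71.0, 63.8 and 72.5 CPM in the WT DMSO libraries, at 138, 135, 74.9 and 74.4 CPM in the Het DMSO libraries and at 91.7, 77.0, 75.8 and 80.9 CPM in the Het Hit 2 libraries. Library 420 (Het DMSO) lay below library 413 (WT DMSO), so the groups overlapped, and the 2 highest values were again in 409 and 411. For Rps2, which lies near the mRNA entry channel, the log2 fold change was 0.57 (SE 0.20, edgeR unadjusted p 0.0147, adjusted p 0.616), with an exact two-sided permutation p of 0.0857, and without both libraries it was 0.07. Rps23 stood at 74.9, 73.9, 70.4 and 66.7 CPM in the WT DMSO libraries, at 99.3, 132, 78.4 and 76.8 CPM in the Het DMSO libraries and at 86.5, 77.5, 74.7 and 74.3 CPM in the Het Hit 2 libraries. Here all 4 Het DMSO libraries were above all 4 WT DMSO libraries, the lowest pair by a small margin. For Rps23, a protein of the decoding centre, the log2 fold change was 0.43 (SE 0.16, edgeR unadjusted p 0.0184, adjusted p 0.616), and 0.11 without both libraries.

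Rps3 stood at 114, 120.0, 115 and 96.8 CPM in the WT DMSO libraries, at 203, 190.2, 114 and 124 CPM in the Het DMSO libraries and at 135, 108, 112 and 111 CPM in the Het Hit 2 libraries. The groups overlapped, and libraries 409 and 411 were highest. Rps3, at the mRNA entry and also known as a DNA repair factor, had a log2 fold change of 0.50 (SE 0.18, edgeR unadjusted p 0.0188, adjusted p 0.616) and of 0.08 without both libraries. Rpl37a stood at 62.7, 62.7, 60.1 and 55.1 CPM in the WT DMSO libraries, at 79.1, 97.9, 65.2 and 66.1 CPM in the Het DMSO libraries and at 71.2, 58.4, 59.7 and 67.7 CPM in the Het Hit 2 libraries. The Het DMSO and WT DMSO libraries did not overlap for Rpl37a, a zinc-binding protein of the large subunit, and its log2 fold change was 0.36 (SE 0.14, edgeR unadjusted p 0.0236, adjusted p 0.616), or 0.12 without both libraries. In all, 5 members (6.10%) had Het DMSO libraries all above the WT DMSO libraries, against 1.94% of all genes tested. They were Rpl22, Rpl30, Rpl37a, Rps14 and Rps23. None had all Het DMSO libraries below, against 2.45% of all genes.

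**Figure D4:**
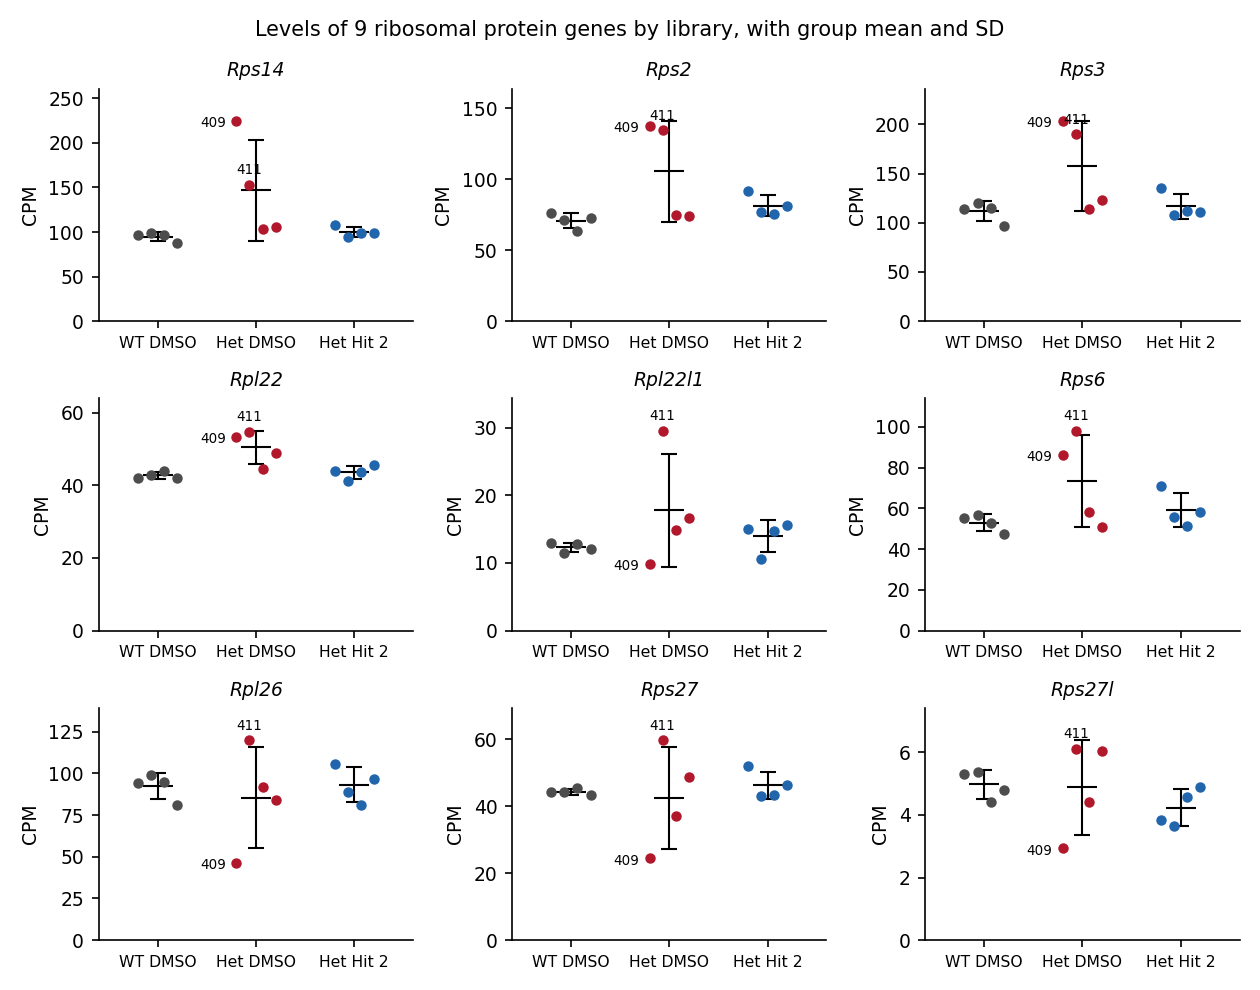
CPM of 9 ribosomal protein genes (y axes from 0) in each library by group, with the mean and SD (bars, 4 libraries per group) and labels on Het DMSO libraries 409 and 411. Both libraries are high for Rps14, Rps2, Rps3, Rpl22 and Rps6, while for Rpl22l1, Rpl26, Rps27 and Rps27l library 409 is the lowest and 411 the highest of the group.

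The treatment comparison sets Het Hit 2 against Het DMSO. No member passed the test, and the sign of the shift depended on library 411. With edgeR 0 of 82 members had an adjusted p under 0.05, as for all 19378 genes tested (0%), and DESeq2 and limma also gave 0. At an unadjusted p under 0.05 edgeR gave 3 members (3.66%), against 1.55% of all genes tested. All 3 were lower in Het Hit 2 and none higher, against 0.8% of all genes lower and 0.753% higher at that p, and DESeq2 gave 4 members (2.28% of all genes) and limma 3 (5.04%). A fit of the compared groups alone gave 0 (0.472%). The edgeR genes were Rpl22, Rps14 and Rps3. The log2 fold change was below 0 for 69 of 82 members, against 55.7% of all genes, with a median of -0.13 against -0.04. Without both libraries 56 members were above 0 (52.3% of all genes), the median was 0.04, and only Rpl24 had an unadjusted p under 0.05 (3.72% of all genes). No member had Het Hit 2 libraries all above or all below the Het DMSO libraries, against 0.635% and 0.392% of all genes. Without library 411 alone the median was 0.02 with 44 members above 0, and without 420 or 429 it was -0.20. The count at an unadjusted p under 0.05 was 12 without library 429 (6.11% of all genes), 11 without 420 (5.79%), 7 without 409 (2.09%), 1 without 411 (5.96%) or 422 (1.08%) and 0 without 421 (0.758%). This comparison and the one before share the Het DMSO libraries, so their values are not independent.

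The 5 members with the smallest p were Rps14, Rps3, Rpl22, Rpl18 and Rpl9. The log2 fold change was -0.55 (SE 0.21, edgeR unadjusted p 0.0222, adjusted p 0.898) for Rps14 and -0.44 (SE 0.18, edgeR unadjusted p 0.0351, adjusted p 0.898) for Rps3, whose values per library are given above. Without both libraries they were -0.07 and -0.03, and without library 409 alone that of Rps14 was -0.27. Rpl22 stood at 42.0, 42.8, 44.0 and 42.0 CPM in the WT DMSO libraries, at 53.4, 54.8, 44.6 and 49.0 CPM in the Het DMSO libraries and at 43.8, 41.2, 43.7 and 45.6 CPM in the Het Hit 2 libraries. The Het DMSO libraries lay above all WT DMSO libraries and overlapped the Het Hit 2 libraries only through library 420. For Rpl22, an RNA-binding protein of the large subunit that general translation does not require, the log2 fold change was -0.21 (SE 0.10, edgeR unadjusted p 0.0473, adjusted p 0.898), with an exact two-sided permutation p of 0.0571, and it was -0.11 without both libraries. Rpl18 stood at 60.4, 60.2, 58.2 and 59.4 CPM in the WT DMSO libraries, at 89.9, 80.4, 59.9 and 61.1 CPM in the Het DMSO libraries and at 60.7, 60.4, 57.7 and 64.5 CPM in the Het Hit 2 libraries. The other 10 libraries lay close together, with 409 and 411 above them, and the log2 fold change of Rpl18 was -0.26 (SE 0.13, edgeR unadjusted p 0.0709, adjusted p 0.898), against 0.00 without both libraries. For Rpl9 the group means were 125 ± 36.5 CPM in Het DMSO and 97.9 ± 10.5 CPM in Het Hit 2 (SD, n = 4 each). Its log2 fold change was -0.35 (SE 0.18, edgeR unadjusted p 0.0718, adjusted p 0.898), or -0.02 without both libraries.

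The comparison of Het Hit 2 with WT DMSO holds neither library 409 nor 411 in its groups, though both enter the common estimate of spread, the filter and the scaling. Most members were slightly higher in Het Hit 2 and none passed the test. With edgeR 0 of 82 members had an adjusted p under 0.05 (0.00516% of all genes tested), and 0 had an unadjusted p under 0.05 (1.71% of all genes tested, with 0.748% higher and 0.96% lower). DESeq2 gave 0 members at either threshold, against 24 genes and 1.95% of all genes, and limma gave 0 and 2, against 221 genes and 12.9%. A fit of the compared groups alone gave 2 members at an unadjusted p under 0.05, against 9.31% of all genes. In 74 of 82 members the log2 fold change was above 0, against 55.7% of all genes, with a median of 0.08 against 0.02. With both libraries out of the fit the median was 0.06, 73 members were above 0 (52.5% of all genes), and Rpl7a and Rps2 had an unadjusted p under 0.05, against 9.5% of all genes. None then had an adjusted p under 0.05, against 0.448% of all genes. With 12 libraries no member had Het Hit 2 libraries all above or all below the WT DMSO libraries, against 2.9% and 3.42% of all genes. The median was 0.03 without Het Hit 2 library 410, 0.04 without WT DMSO library 431, 0.05 without Het Hit 2 library 430 and 0.01 with library weights, and 0.12 with sex as a covariate. In the same order 59, 64, 58, 49 and 75 members were above 0.

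Rpl7a stood at 98.3, 100.9, 102 and 93.0 CPM in the WT DMSO libraries, at 111, 129, 100.5 and 102 CPM in the Het DMSO libraries and at 113, 107, 102 and 116 CPM in the Het Hit 2 libraries. The WT DMSO and Het Hit 2 libraries touched only at 426 and 422. Rpl7a, a large subunit protein, had a log2 fold change of 0.15 (SE 0.11, edgeR unadjusted p 0.173, adjusted p 1.000), with an exact two-sided permutation p of 0.0571. The next members by p were Rpl36al (-0.46, from 4 to 33 reads per library), Rpl10a (0.14), Rps18 (0.13) and Rpl27 (0.16), each with an adjusted p of 1.000 from edgeR. Leaving out 1 library at a time gave -0.68 to -0.28 for Rpl36al and 0.07 to 0.18 for Rpl10a. It gave 0.07 to 0.16 for Rps18 and 0.11 to 0.21 for Rpl27.

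**Figure D5:**
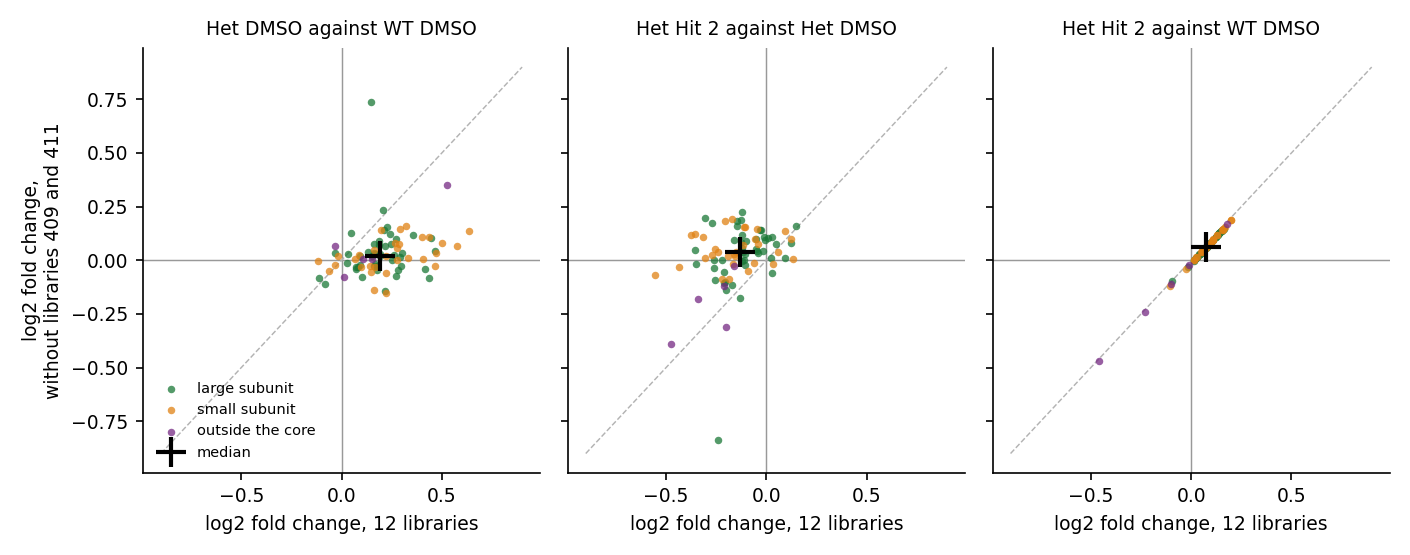
Log2 fold change of each of the 82 genes with all 12 libraries (x axis) and without Het DMSO libraries 409 and 411 (y axis) in the 3 comparisons, with a cross at the median and a dashed line of equality. The median moves from 0.19 to 0.02 in the left panel and from -0.13 to 0.04 in the middle one, and from 0.08 to 0.06 in the right one, where neither library belongs to the groups compared.

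By role, Rplp0, Rplp1 and Rplp2 form the stalk that recruits elongation factors. Rplp0 stood at 105, 110.0, 106 and 97.3 CPM in the WT DMSO libraries, at 129, 119.7, 105 and 94.2 CPM in the Het DMSO libraries and at 120.0, 108, 105 and 106 CPM in the Het Hit 2 libraries. All 3 groups overlapped, and the log2 fold change was 0.10 in the knock-in comparison and -0.03 in the treatment comparison. For Rplp1 these were 0.30 and -0.15, and for Rplp2 0.25 and -0.21. Without both libraries the stalk genes had a median of -0.03 in the knock-in comparison and 0.14 in the treatment comparison.

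Among large subunit proteins with known roles, Rpl5 and Rpl11, which bind the 5S rRNA and hold back MDM2 when assembly is disturbed, were measured separately. Rpl5 stood at 68.6, 66.2, 72.0 and 62.2 CPM in the WT DMSO libraries, at 43.5, 87.1, 74.1 and 73.6 CPM in the Het DMSO libraries and at 72.6, 66.9, 69.3 and 75.3 CPM in the Het Hit 2 libraries. Library 409 was the lowest and 411 the highest, and the other 10 libraries lay between 62.2 and 75.3 CPM. Rpl11 stood at 69.6, 76.6, 71.7 and 64.5 CPM in the WT DMSO libraries, at 115, 128, 73.1 and 73.5 CPM in the Het DMSO libraries and at 89.7, 68.2, 69.5 and 77.2 CPM in the Het Hit 2 libraries. For Rpl11 both libraries were above the other 10, in contrast to Rpl5, and the log2 fold changes in the knock-in comparison were 0.05 (Rpl5) and 0.47 (Rpl11), or 0.13 and 0.04 without both libraries. Rpl3 of the peptidyl transferase centre had means of 159.8 ± 11.8 CPM, 213 ± 76.6 CPM and 177 ± 23.1 CPM in WT DMSO, Het DMSO and Het Hit 2 (SD, n = 4 each). Rpl10, which completes the large subunit and is X-linked, had 59.4 ± 4.52 CPM, 66.7 ± 18.3 CPM and 65.5 ± 9.83 CPM in the same order. Rpl39 of the exit tunnel had 22.0 ± 1.14 CPM, 25.5 ± 9.64 CPM and 22.2 ± 1.46 CPM, Rpl38, known for the translation of Hox mRNAs, 44.8 ± 3.12 CPM, 50.1 ± 14.7 CPM and 46.4 ± 4.20 CPM, and Rpl41 80.9 ± 9.56 CPM, 109 ± 41.4 CPM and 88.7 ± 14.4 CPM. In each of these 5 genes the Het DMSO group had the largest SD and overlapped both other groups. The log2 fold change in the knock-in comparison moved from 0.42 to -0.04 for Rpl3, from 0.17 to -0.02 for Rpl10, from 0.21 to 0.14 for Rpl39, from 0.16 to 0.03 for Rpl38 and from 0.44 to -0.08 for Rpl41 without both libraries.

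In the small subunit, Rps6, the substrate of the S6 kinases downstream of mTOR, was followed in every library. Rps6 stood at 55.1, 56.6, 52.8 and 47.2 CPM in the WT DMSO libraries, at 86.1, 98.2, 58.3 and 51.0 CPM in the Het DMSO libraries and at 70.8, 55.8, 51.4 and 58.4 CPM in the Het Hit 2 libraries. Libraries 409 and 411 were the highest, library 410 the next, and the remaining 9 lay between 47.2 and 58.4 CPM. Its log2 fold change was 0.47 (SE 0.19, edgeR unadjusted p 0.0316, adjusted p 0.616) in the knock-in comparison and -0.31 (SE 0.19, edgeR unadjusted p 0.132, adjusted p 0.898) in the treatment comparison, or 0.03 and 0.11 without both libraries. Rps19, Rps24 and Rps26, in which mutations cause Diamond-Blackfan anaemia in people, had log2 fold changes of 0.22, -0.02 and 0.10 in the knock-in comparison. In the treatment comparison these were -0.17, 0.03 and -0.04. Rps24 stood at 118, 120.1, 117 and 119 CPM in the WT DMSO libraries, at 72.6, 153.7, 116 and 126 CPM in the Het DMSO libraries and at 126, 115, 114 and 125 CPM in the Het Hit 2 libraries. The WT DMSO libraries of Rps24 lay close together, while 409 was the lowest library and 411 the highest. Rps25, used by viral internal ribosome entry sites, gave -0.03 and 0.06. The X-linked Rps4x gave 0.40 and -0.24, and Rpsa, the laminin receptor precursor, 0.41 and -0.21. Rps27a, made as a fusion with ubiquitin, gave 0.29 and -0.22. Without both libraries the log2 fold changes in the knock-in comparison were -0.15 (Rps19), 0.02 (Rps24), -0.03 (Rps26), -0.02 (Rps25), 0.11 (Rps4x), 0.00 (Rpsa) and 0.14 (Rps27a). In the treatment comparison they were 0.19, -0.02, 0.07, 0.04, 0.04, 0.18 and -0.09 in the same order, so the sign turned for Rps19, Rps24, Rps26, Rps4x and Rpsa.

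Of the 5 members outside the core, 4 were above 0 in the knock-in comparison, and the paralogs had lower levels per length than their partners. Rps27l stood at 9.38 CPM per kilobase against 128 for Rps27, and Rpl22l1 at 25.1 against 92.6 for Rpl22, while Rpl36al stood at 0.946 against 48.6 for Rpl36a. The level of Rpl36al is uncertain, since it shares 24.5% of its exonic bases with another gene. Rps27l stood at 5.32, 5.37, 4.42 and 4.79 CPM in the WT DMSO libraries, at 2.93, 6.11, 4.42 and 6.05 CPM in the Het DMSO libraries and at 3.82, 3.66, 4.58 and 4.88 CPM in the Het Hit 2 libraries. The 3 groups overlapped and library 409 was the lowest. Rps27 stood at 44.2, 44.2, 45.5 and 43.3 CPM in the WT DMSO libraries, at 24.4, 59.8, 37.1 and 48.8 CPM in the Het DMSO libraries and at 51.9, 43.1, 43.4 and 46.3 CPM in the Het Hit 2 libraries. The WT DMSO libraries of Rps27 lay close together, and 409 and 411 were the lowest and the highest library. Rpl22l1 stood at 13.0, 11.5, 12.7 and 12.1 CPM in the WT DMSO libraries, at 9.90, 29.6, 14.9 and 16.7 CPM in the Het DMSO libraries and at 15.1, 10.6, 14.7 and 15.6 CPM in the Het Hit 2 libraries. In Het DMSO, libraries 411, 420 and 429 were above all WT DMSO libraries and 409 below them. The log2 fold change of Rpl22l1, whose mRNA the Rpl22 protein is known to repress, was 0.52 (SE 0.27, edgeR unadjusted p 0.0778, adjusted p 0.616) in the knock-in comparison. It was 0.35 without both libraries (edgeR unadjusted p 0.0381, adjusted p 0.812). All 5 members outside the core were below 0 in the treatment comparison, with a median of -0.21 and of -0.18 without both libraries, and none passed the test.

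Other genes of the pathway were read from lists, and no gene of any of them passed an adjusted p of 0.05 in the 3 comparisons. Fau, a small subunit protein gene that the naming rule does not take, stood at 59.8 ± 2.64 CPM in WT DMSO, 70.4 ± 15.4 CPM in Het DMSO and 63.4 ± 5.05 CPM in Het Hit 2 (SD, n = 4 each), with a log2 fold change of 0.24 in the knock-in comparison (edgeR unadjusted p 0.127, adjusted p 0.618), or -0.05 without both libraries. Among 18 translation factors with TOP mRNAs, such as Eef1a1, Eef2 and Pabpc1, 11 were above 0 with a median of 0.13, and 9 with a median of -0.003 without both libraries. Eef1g, a subunit of the elongation factor 1 complex, stood at 104 ± 5.23 CPM in WT DMSO, 139 ± 45.1 CPM in Het DMSO and 108 ± 12.9 CPM in Het Hit 2 (SD, n = 4 each), and its log2 fold change of 0.42 became -0.03 without both libraries. In library 411 the list's median deviation was 0.36, with 15 of 18 above their own medians. Among 18 genes of mTOR, LARP1 and S6 kinase control the median was 0.01, or -0.02 without both libraries, and Rictor, a subunit of mTOR complex 2, had the smallest p, with a log2 fold change of -0.48 (edgeR unadjusted p 0.0429, adjusted p 0.616), or -0.14 without both (edgeR unadjusted p 0.156). Among 34 ribosome biogenesis genes 24 were above 0 with a median of 0.08, or 18 with a median of 0.01 without both, and the snoRNP protein gene Nop56 had the smallest p (log2 fold change 0.29, edgeR unadjusted p 0.0390, adjusted p 0.616, and 0.07 without both). The median was 0.07 for 9 snoRNA host genes with a TOP start, or 0.21 without both, and their median deviation was -0.46 in library 409.

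The mitochondrial ribosome, built from other proteins that nuclear genes encode, served as a comparison. Of its 77 genes tested 50 were above 0 in the knock-in comparison, and their median was 0.07, against 74 of 82 and 0.19 for the cytosolic set. Without both libraries its median was -0.05. In library 411 its median deviation was 0.20, against 0.57 for the cytosolic set, and in library 409 0.17 against -0.03. The mitochondrial set had a median of -0.06 in the treatment comparison and of 0.01 between Het Hit 2 and WT DMSO. Without both libraries these medians were 0.06 and -0.004. The difference between the sets was not tested. Ribosomal protein pseudogenes, of which 25 had enough reads to be tested, had medians of -0.12, 0.28 and 0.25 in the 3 comparisons, from few reads. Without both libraries these medians were 0.23, -0.06 and 0.22, so the sign turned in the knock-in and treatment comparisons.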

How the data were processed

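Libraries were stranded and depleted of rRNA (500 ng input, 13 PCR cycles, paired reads of 100 bases), per the labels' protocols. The deposited values are raw counts per gene in the layout of STAR, 1 table per library; STAR 2.7.10a and the build GRCm39 are named in the submitters' processing notes, and the annotation release is not given in the sources used here. The deposited counts are not normalized. Counts on the strand opposite the first read were used, since 5.21% to 6.47% of gene reads lay on the other strand. Unassigned (44.7% to 54.6%), multimapping (4.08% to 7.01%), unmapped (3.70% to 6.53%) and ambiguous reads (0.761% to 1.33%) stayed out of library sizes and tests.

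Of 55401 identifiers, 55141 matched the GENCODE M21 annotation of GRCm38, which gave names, transcript lengths and coding sequences only. Promoters are RefSeq's, matched by symbol. All 12 libraries entered 1 edgeR 4.0.16 fit in R 4.3.3 (filterByExpr, 19378 genes, TMM factors, quasi-likelihood, 1 coefficient per group), with two-sided tests, Benjamini-Hochberg adjustment over every gene tested and a threshold of 0.05. Libraries were tested per mouse, and p-values measure the spread between these mice. CPM use TMM-scaled library sizes, and deviations use log2 CPM (prior count 2). A second comparison of single genes was an exact two-sided permutation test over 70 assignments, whose smallest p is 0.0286. Wilson 95% intervals of shares hold counting error only, since amplified reads are not independent molecules.

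The alternatives were DESeq2 1.42.0, limma 3.58.1 with a quality weight per library, RLE, upper-quartile and no scaling factors, TMM factors without the members, robust quasi-likelihood, unstranded counts, no filter on low counts, a minimum mean of 50 reads, fits of the compared groups alone, sex as a covariate, leaving out libraries 409 and 411 together and leaving out each replicate. Named were members past the threshold, the 5 with the smallest p in each comparison, the 3 highest and 3 lowest per length, a set by role and, of each other list, the 2 genes with the smallest p. The members, lists and named set were chosen with earlier results of these data known. One gene of these lists is not reported here.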

Additional observations from a re-analysis of the deposited data

Results flagged for a closer look

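A library was singled out where its gap to the nearest of the 4 libraries of its group exceeded the 95% critical value of Dixon's ratio. Of 72 such checks 12 met this, where chance gives about 3.6. The checks overlap, since the subunit medians hold the same genes as the full set.

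In the Het DMSO group, library 411 lay apart with a ribosomal protein share of 0.838% of gene reads, against 0.544% in the next library. Its median deviation was 0.571 for all members, 0.501 for the large subunit, 0.687 for the small subunit and 0.363 for translation factors with TOP mRNAs, each on the log2 scale. Library 409 lay apart for the snoRNA host genes, at -0.464 against 0.0879 in the next library.

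In the WT DMSO group, library 431 lay below the other 3, with a median deviation of -0.171 for all members, -0.149 for the large subunit and -0.186 for the small subunit. Rpl10a stood at 5.40 log2 CPM in that library, against 5.56 in the next. For the genes of TOP control, library 413 differed from the rest of the group by a small amount, at 0.00416 against 0.00813.

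In the Het Hit 2 group, Rps3 stood at 7.08 log2 CPM in library 410, against 6.81 in the next library.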

How the results depend on the processing

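No member passed an adjusted p of 0.05 in any comparison under any of the 25 alternatives. The smallest adjusted p of a member was 0.337 in the knock-in comparison, 0.624 in the treatment comparison and 0.342 between Het Hit 2 and WT DMSO, over edgeR, DESeq2 and limma. The direction turned in 3 values, all in the treatment comparison: the median over members became 0.039 without libraries 409 and 411 and 0.018 without library 411, and Rpl18 became 0.0033 without both. The cause was not tested. Leaving out 1 replicate at a time gave medians from 0.06 to 0.25, from -0.20 to 0.02 and from 0.03 to 0.11 in these comparisons, in that order. Library weights gave 0.04, -0.02 and 0.01, and the scaling alternatives kept the sign of all 3 medians. All other values of medians, shares and the 5 members with the smallest p in each comparison kept their direction and their side of the threshold. Of the further members named by role, none of them past the threshold, 16 of 24 changed sign under at least 1 alternative in the knock-in comparison (10 without libraries 409 and 411), 18 of 23 in the treatment comparison (15 without both) and 11 of 23 between Het Hit 2 and WT DMSO (0 without both). Without a filter or with a mean of at least 50 reads the medians kept their sign, and the latter left out 2 members. No paired analysis was possible because the animal numbers do not recur between groups. The precision rests on 4 mice per group, 2 of them apart in Het DMSO. The median SD of members within groups was 0.25 on the log2 scale. Without libraries 409 and 411 the SD was computed over all remaining libraries, regardless of group, and its median was 0.12. These SDs are of different kinds, so the change between them does not measure the effect of leaving out libraries 409 and 411.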
